A study of Mus musculus with 7 samples.

Results

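The nuclear genes for the subunits of the mitochondrial respiratory chain and ATP synthase were followed in Kupffer cells, which are the macrophages that reside in the liver, after deletion of Commd10. Members were taken by symbol: Nduf genes of the A, B, C, S and V series (complex I), Sdha to Sdhd (complex II), Uqcr genes (complex III), Cox4 to Cox8 genes (complex IV) and Atp5 genes (complex V). The rule used no measured value and found 77 of the 10550 genes in the table, with 34 in complex I, 4 in complex II, 8 in complex III, 14 in complex IV and 17 in complex V. Atp5s and Atp5sl carry subunit-like names but are not subunits, and Ndufa4, counted here with complex I by its symbol, has since been placed in complex IV.

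The 3 Commd10-deficient libraries (genotype label Clec4FDCommd10) came from mice with loxP-flanked Commd10 alleles and Cre at the Clec4f locus, a gene that is characteristic of Kupffer cells. The 4 control libraries came from Commd10fl/fl mice, which the design text calls littermates and which carry the same floxed alleles without Cre. All mice were untreated 8-week-old C57BL/6 males, cells were sorted by Kupffer cell surface markers, and a bulk adaptation of MARS-seq was run on about 10000 cells of each, a method which counts 3′ ends of polyadenylated RNA by unique molecular identifiers (UMIs). Sample titles split the controls into a first set (control replicates 1 and 2, control set 1) and a second (control replicates 3 and 4, control set 2), and both are given apart. The Cre allele and the loss of Commd10 cannot be told apart in this design, and no label says which samples share an animal or a sort, so p-values measure only the spread between these libraries.

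The respiratory chain passes electrons from NADH (complex I) and succinate (complex II) through ubiquinone to complex III, and through cytochrome c to complex IV, which reduces oxygen. Complexes I, III and IV pump protons, and complex V, the ATP synthase, uses the gradient to make ATP. Each complex except II also holds subunits encoded by the mitochondrial genome, of which the table lists 0. Macrophages shift the balance between this pathway and glycolysis with their state of activation.

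Depth differed widely between libraries, which limits the precision of values in the shallow ones. The Commd10-deficient libraries held 116458, 105462 and 124016 counts, against 4270240 and 3207144 in control set 1 and 230942 and 267553 in control set 2. A floor of 3 counts, which covers counting error only, was 24.3 to 28.02 CPM (counts scaled to a common library total with TMM factors, the scale of all levels below) in Commd10-deficient libraries, 0.657 to 0.860 CPM in control set 1 and 12.3 to 14.0 CPM in control set 2. Commd10 itself had 0, 4 and 2 counts in the Commd10-deficient libraries. Control set 1 had 167 and 130 counts, and control set 2 had 7 and 1. Scaled to the library total without TMM factors, Commd10 was at 0, 37.9 and 16.1 CPM in Commd10-deficient libraries. On that scale it was at 39.1 and 40.5 CPM in control set 1 and 30.3 and 3.74 CPM in control set 2. Commd10-deficient replicate 2 thus lay close to control set 1. At this depth the counts of Commd10 did not clearly separate the Commd10-deficient libraries from either control set. Which exons were deleted is not stated in the labels, so the 3′ counts may lie outside them. Kupffer cell markers were abundant in every library: all 17 listed genes summed to 76085 to 80823 CPM in Commd10-deficient libraries, 74043 to 76374 CPM in control set 1 and 72173 to 73287 CPM in control set 2. Hepatocyte markers (17 of 18 listed) summed to 7664 to 8277 CPM in Commd10-deficient libraries, 5497 to 6119 CPM in control set 1 and 10046 to 10719.6 CPM in control set 2. Sinusoidal endothelial markers summed to 663 to 719.5 CPM in Commd10-deficient libraries, 749 to 849 CPM in control set 1 and 765 to 831 CPM in control set 2, with Kdr at 0 in every Commd10-deficient library. Monocyte and dendritic cell markers summed to 289.6 to 549 CPM in Commd10-deficient libraries, 579 to 949 CPM in control set 1 and 229 to 401 CPM in control set 2, with Chil3 and Zbtb46 at 0 in every Commd10-deficient library. At the floor of the Commd10-deficient libraries, a count of 0 does not show that a transcript was absent or lower than in controls. In bulk samples, fewer cells of a type and less RNA per cell cannot be told apart.

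The summed level of complexes I, IV and V was lower in every Commd10-deficient library than in every control library, whereas complexes II and III overlapped. Complex I summed to 5384, 5231 and 6403 CPM in Commd10-deficient libraries, against 6609 and 6753 CPM in control set 1 and 10206 and 11399.5 CPM in control set 2. Complex IV summed to 4313, 3905 and 4924 CPM in Commd10-deficient libraries, against 5547 and 5598 CPM in control set 1 and 7374 and 7915 CPM in control set 2. The ratio of the Commd10-deficient mean to the control mean was 0.849 for complex I and 0.786 for complex IV against set 1, and 0.525 and 0.573 against set 2. The ratio for complex V was 0.863 against set 1 and 0.595 against set 2. For complex I the control sets lay further apart (log2 ratio -0.69, set 1 over set 2) than the Commd10-deficient libraries lay from set 1 (-0.24). The same held for complex IV (-0.46 and -0.35) and complex V (-0.54 and -0.21). Complex V summed to 4587, 3942 and 4786 CPM in Commd10-deficient libraries, against 4908 and 5379 CPM in control set 1 and 7052 and 7874 CPM in control set 2.

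Complex II summed to 1492, 1419.9 and 1108 CPM in Commd10-deficient libraries, above the 988 and 993 CPM of control set 1 and overlapping the 1451 and 1529.8 CPM of control set 2. Complex III summed to 2041, 1980.4 and 2369 CPM in Commd10-deficient libraries, against 2011 and 1983 CPM in control set 1 and 2945 and 3428 CPM in control set 2. Against control set 1 the complex III sum had a log2 ratio of 0.09 that turned to -0.01 as a share of the library total. As a share of the library total, the members together made up 1.78%, 1.67% and 1.95% of counts in Commd10-deficient libraries, against 2.15% and 2.25% in control set 1 and 2.69% and 2.94% in control set 2. Hepatocyte markers were also higher in control set 2 than in control set 1, and their part in these sums was not tested.

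**Figure D1:**
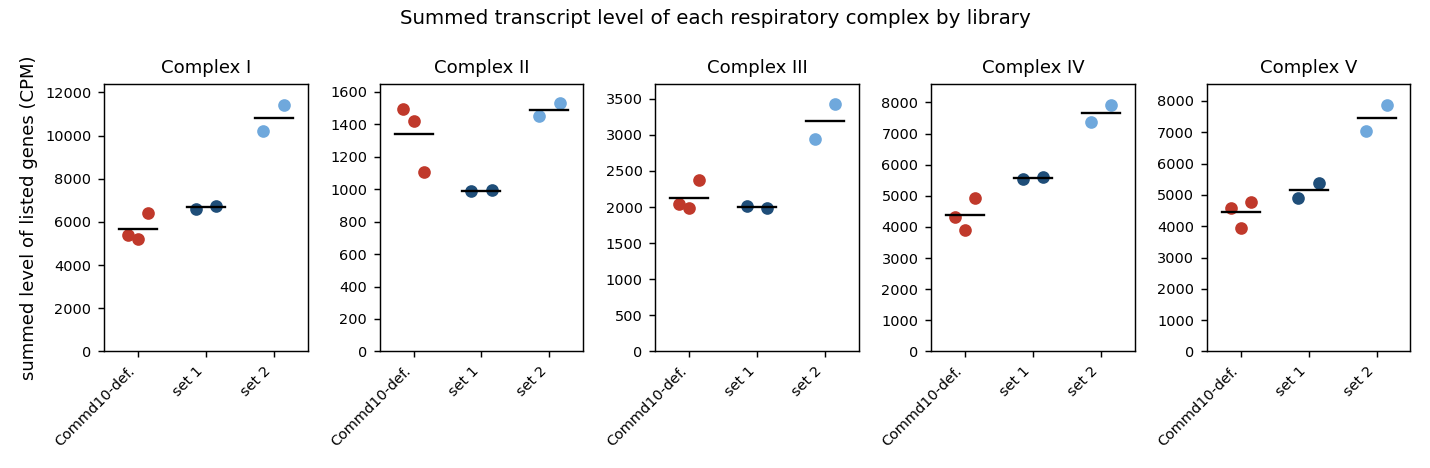
Summed level of the listed genes of each complex in CPM (y axes from 0, a scale for each complex). Points are libraries and bars are group means. Complexes I, IV and V lay lower in all 3 Commd10-deficient libraries than in all 4 controls, while complexes II and III overlapped, and control set 2 had the highest mean for all 5 complexes.

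Of the 77 members, 70 passed the expression filter. Against all 4 controls, edgeR called 8 members at an adjusted p under 0.05: 7 were lower in Commd10-deficient cells (Ndufb10, Ndufa6, Ndufs6, Ndufv3, Uqcr11, Cox5b and Cox4i1) and 1 was higher (Sdha). That was 11.4% of tested members, against 6.04% of all 3412 tested genes (3.46% higher and 2.58% lower). The median log2 fold change was -0.39 over tested members and -0.05 over all tested genes, and 54 of the 70 estimates were below 0. Log2 fold changes ran from -2.09 to 0.39 in complex I, -0.37 to 1.23 in complex II, -1.60 to 1.88 in complex III, -1.74 to 0.42 in complex IV and -1.59 to 0.63 in complex V. Every Commd10-deficient library lay below every control for 16 members, against 11.8% of all tested genes, and above every control for 3 (Sdha, Sdhd and Uqcrb), against 13.2% of all tested genes.

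The 2 control sets gave different pictures of the same genes. Against control set 1, 16 of 70 tested members were called (22.9%, near the 19.3% of all tested genes), with 6 higher and 10 lower where 11.6% of all tested genes were higher and 7.71% lower. Against control set 2, 26 were called (37.1%, against 19.1% of all tested genes), with 3 higher and 23 lower where 8.7% of all tested genes were higher and 10.3% lower. The median log2 fold change of tested members was -0.15 against set 1 and -0.58 against set 2, beside -0.01 for all tested genes in both. Control set 1 differed from control set 2 as widely: 27 members were called (38.6%, against 18.7% of all tested genes), 2 higher and 25 lower in set 1, where 7.8% of all tested genes were higher and 10.9% lower. These comparisons share libraries, so their calls are not independent of one another. Most members have short transcripts, and the shares called among the shortest genes are given below with transcript length. The 8 members called against all controls were also called in the same direction against each set, 16 were called lower against set 2 only, 3 lower against set 1 only (Cox5a, Ndufb11 and Ndufb6), 5 higher against set 1 only, 2 higher against set 2 only, and 36 against neither.

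The number of calls rested on few libraries. How many of all tested genes were called in the same fits is not given here. The counts below therefore do not show whether a change was particular to the members. Against all controls, 0 members were called without Commd10-deficient replicate 1 and 0 without replicate 2, 3 without replicate 3, 13 and 16 without control replicates 1 and 2, and 5 each without control replicates 3 and 4. Against control set 1 the count was 6 without Commd10-deficient replicate 1 and 6 without replicate 2. Against control set 2 it was 16 and 15 without Commd10-deficient replicates 1 and 2, and 14 without control replicate 4. Between the control sets it was 10 without control replicate 3 and 7 without control replicate 4. An offset for transcript length and GC content left 0 of the 8 calls, while 20 members were still at an unadjusted p under 0.05. Limma-voom kept 2 of the 8 calls (Cox4i1 and Uqcr11), and a fit with no filter on low counts kept 7, all but Sdha. All 8 members kept their sign in each of the 16 alternatives run.

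**Figure D2:**
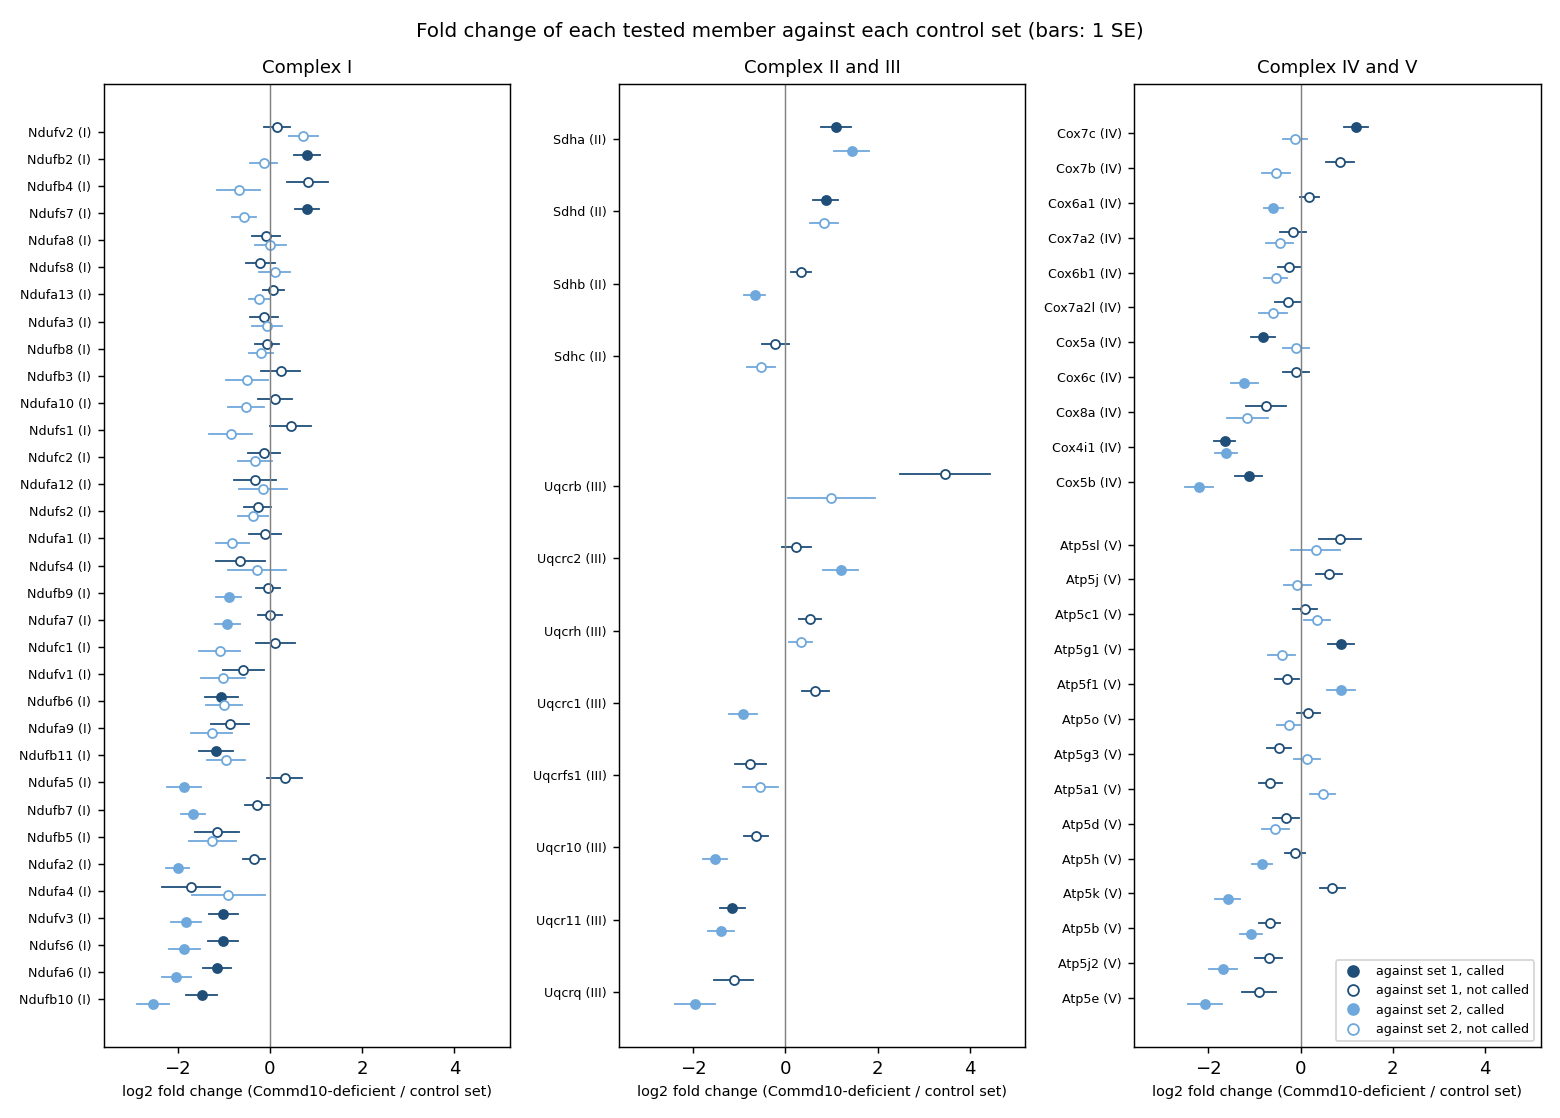
Log2 fold change of each tested member, Commd10-deficient over control set 1 (dark) and over control set 2 (light), with bars of 1 SE. Filled points passed an edgeR adjusted p of 0.05. The 7 members lower against both sets lie at the foot of complexes I, III and IV, Sdha is filled to the right of 0 against both, and many members sit further left against set 2 than against set 1.

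In complex I, 4 of 33 tested members fell and 0 rose against all controls, where 2.58% of all tested genes fell and 3.46% rose. Among the 682 shortest tested genes, 6.89% fell. The 4 members that fell were all accessory subunits, which surround the catalytic core and make up 26 of the 33 tested members. Ndufb10, an accessory subunit of the membrane arm, had 5, 12 and 20 counts (42.9, 112 and 162 CPM) in Commd10-deficient libraries, against 303 and 288 CPM in control set 1 and 667 and 569 CPM in control set 2. All 3 Commd10-deficient libraries lay below both sets, with means of 106 ± 59.7 CPM (SD, n = 3) and 457 ± 190.5 CPM (SD, n = 4, controls). The log2 fold change was -2.09 (SE 0.46, edgeR adjusted p = 0.0217), or -1.48 against set 1 and -2.54 against set 2. Ndufa6, a matrix-arm subunit that binds the mitochondrial acyl carrier protein, had 11, 21 and 16 counts (94.3, 196 and 129 CPM) in Commd10-deficient libraries, against 309 and 306 CPM in control set 1 and 667 and 466 CPM in control set 2. Its log2 fold change was -1.63 (SE 0.39, edgeR adjusted p = 0.0279), with no overlap between genotypes.

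Ndufs6, a zinc-binding accessory subunit, had 20, 7 and 19 counts (171, 65.4 and 154 CPM) in Commd10-deficient libraries, against 269.8 and 265 CPM in control set 1 and 378 and 573 CPM in control set 2. Its log2 fold change was -1.48 (SE 0.41, edgeR adjusted p = 0.0454). An exon of Ndufs6 overlaps Mrpl36 on the opposite strand, and Ndufs6 has 1 near-identical pseudogene transcript, and the strand setting of the counting is not given in the sources used here, so its counts are less certain. Ndufv3, an accessory subunit of the NADH-binding module, had 9, 16 and 30 counts (77.2, 149 and 243 CPM) in Commd10-deficient libraries, against 323 and 310.4 CPM in control set 1 and 555 and 556 CPM in control set 2. Its log2 fold change was -1.46 (SE 0.40, edgeR adjusted p = 0.0465), and the 3 Commd10-deficient libraries were lowest although they spread over a wide range.

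The catalytic core, which holds the flavin and the iron-sulfur clusters, gave 0 calls among its 6 tested genes with edgeR, DESeq2 or limma-voom, and 0 at an unadjusted p under 0.05. Its median log2 fold change was -0.14, beside -0.52 for the 26 accessory subunits; the difference between both groups was not tested. The seventh core gene, Ndufs3, did not pass the filter, with 2, 2 and 5 counts (17.1, 18.7 and 40.4 CPM) in Commd10-deficient libraries, 156 and 125 counts (34.2 and 35.8 CPM) in control set 1 and 12 and 10 counts (56.0 and 40.9 CPM) in control set 2. Ndufs7, which carries the last iron-sulfur cluster before ubiquinone and is named after its values were seen, was higher against set 1 (log2 fold change 0.81, edgeR adjusted p = 0.0374) and had an estimate of -0.56 against set 2 (edgeR adjusted p = 0.140). Its levels were 317, 383 and 356 CPM in Commd10-deficient libraries, between 181 and 220.4 CPM in control set 1 and 415 and 622 CPM in control set 2.

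Ndufa2, a matrix-arm accessory subunit with an overlapping opposite-strand gene (Tmco6), also lay near set 1 and below set 2. It had 317, 243 and 396 CPM in Commd10-deficient libraries, against 427 and 388 CPM in control set 1 and 1199 and 1358 CPM in control set 2. The log2 fold change was -2.0 against set 2 (edgeR adjusted p = 2.13e-04) but -0.35 against set 1 (edgeR adjusted p = 0.346), and set 1 lay below set 2 by a log2 change of -1.65 (edgeR adjusted p = 6.57e-04). Ndufa13, an accessory subunit also known as GRIM-19, overlaps Tssk6 on the opposite strand. Its levels overlapped between genotypes, at 592, 645 and 493 CPM in Commd10-deficient libraries, 533 and 563 CPM in control set 1 and 593 and 753 CPM in control set 2. Its log2 fold change was -0.08 (SE 0.26).

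In complex II, succinate dehydrogenase, 1 of 4 members rose and 0 fell against all controls, where 3.46% of all tested genes rose and 2.58% fell. Sdha, the flavoprotein that oxidises succinate, rose by 2.35-fold, Sdhd was higher in every Commd10-deficient library than in every control without passing the test against all controls, and Sdhb and Sdhc overlapped. Sdha had 36, 26 and 18 counts (309, 243 and 146 CPM) in Commd10-deficient libraries, against 119.8 and 96.0 CPM in control set 1 and 98.0 and 73.6 CPM in control set 2. Means were 232 ± 82.1 CPM (SD, n = 3) in Commd10-deficient cells and 96.9 ± 18.9 CPM (SD, n = 4) in controls. The fold change was 2.35 (log2 1.23, SE 0.34, edgeR adjusted p = 0.0454), or 2.14 against set 1 and 2.71 against set 2, and the log2 estimate of set 1 over set 2 was 0.34 (edgeR adjusted p = 0.557). The call for Sdha against all controls held under 7 of 16 alternatives. It was lost with no filter on low counts, with limma-voom and with the length and GC offset. Leaving out any Commd10-deficient replicate, or control replicate 2, 3 or 4, also removed it.

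Sdhd, a membrane anchor that binds heme and ubiquinone, had 257, 383 and 283 CPM in Commd10-deficient libraries, against 168 and 166 CPM in control set 1 and 154 and 188 CPM in control set 2. Its log2 fold change was 0.86 (SE 0.28, edgeR adjusted p = 0.0758), with an edgeR adjusted p of 0.0286 against set 1 and 0.0561 against set 2. DESeq2 and limma-voom both called Sdhd higher against all controls. Sdhb, the iron-sulfur subunit, had 609, 589 and 526 CPM in Commd10-deficient libraries, above the 459.6 and 449 CPM of control set 1 and below the 840.0 and 978 CPM of control set 2. It was called lower against set 2 (log2 fold change -0.66, edgeR adjusted p = 0.0441), a call that held under 6 of 14 alternatives, and had an estimate of 0.34 against set 1 (edgeR adjusted p = 0.309). Sdhc, the other membrane anchor, had 317, 206 and 154 CPM in Commd10-deficient libraries, against 241 and 282 CPM in control set 1 and 359 and 290.4 CPM in control set 2.

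In complex III, 1 of 8 members fell and 0 rose against all controls, where 2.58% of all tested genes fell and 3.46% rose. Uqcr11, a small subunit of the complex, had 14, 15 and 18 counts (120.03, 140.1 and 146 CPM) in Commd10-deficient libraries, against 304 and 295 CPM in control set 1 and 327 and 380.4 CPM in control set 2. The 3 Commd10-deficient libraries lay close together, at 135 ± 13.4 CPM (SD, n = 3), well apart from the controls at 327 ± 38.3 CPM (SD, n = 4). The log2 fold change was -1.26 (SE 0.30, edgeR adjusted p = 0.0269), and the log2 estimate of set 1 over set 2 was -0.24 (edgeR adjusted p = 0.548). Uqcr10, another small subunit, had 266, 206 and 259 CPM in Commd10-deficient libraries, against 439.9 and 313 CPM in control set 1 and 635 and 769 CPM in control set 2, with a log2 fold change of -1.13 (edgeR adjusted p = 0.0623).

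Uqcrq, also a small subunit, had 120.03, 103 and 412 CPM in Commd10-deficient libraries, against 374 and 559.6 CPM in control set 1 and 742 and 928 CPM in control set 2. Commd10-deficient replicate 3 overlapped control set 1 and stood apart from its group, and the log2 fold change was -1.60 (SE 0.46, edgeR adjusted p = 0.0541). Uqcrh, the hinge protein at the cytochrome c side, had 686, 486 and 574 CPM in Commd10-deficient libraries, against 390.4 and 413 CPM in control set 1 and 509 and 417 CPM in control set 2, with a log2 fold change of 0.43 (edgeR adjusted p = 0.324).

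Uqcrb, a small subunit named after its values were seen, had 49, 57 and 73 counts (420.1, 532 and 590.2 CPM) in Commd10-deficient libraries, against 381 and 28 counts (83.4 and 8.03 CPM) in control set 1 and 233 and 282 CPM in control set 2. The groups did not overlap, but the 2 libraries of control set 1 differed 10.4-fold from each other, and the edgeR adjusted p was 0.162 (log2 fold change 1.88, SE 0.79). Uqcrb has 3 near-identical pseudogene transcripts and an opposite-strand neighbour, Gm10767, in the annotation, so its counts are uncertain. The core proteins and the Rieske protein, also named after their values were seen, did not share a direction against set 2. Uqcrc2 was called higher (log2 fold change 1.20, edgeR adjusted p = 0.0373), Uqcrc1 lower (-0.92, edgeR adjusted p = 0.0428), and Uqcrfs1, which carries the Rieske iron-sulfur cluster, was not called (-0.54, edgeR adjusted p = 0.325). The calls for Uqcrc2 and Uqcrc1 held under 7 and 5 of 14 alternatives, and both were lost with limma-voom and with an offset for transcript length and GC content.

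In complex IV, cytochrome c oxidase, 2 of 11 tested members fell and 0 rose against all controls, where 2.58% of all tested genes fell and 3.46% rose. Cox4i1, the nuclear subunit that takes part in the regulation of the enzyme by ATP, had 45, 35 and 62 counts (386, 327 and 501 CPM) in Commd10-deficient libraries, against 1278 and 1266 CPM in control set 1 and 1111 and 1370.2 CPM in control set 2. It was the member with the smallest p, with a log2 fold change of -1.63 (SE 0.27, edgeR adjusted p = 0.0126), -1.65 against set 1 and -1.61 against set 2. The log2 estimate of set 1 over set 2 was 0.04 (SE 0.24). Cox4i1 overlaps Emc8 on the opposite strand in the annotation, so reads of both genes may not be told apart where strand was not used.

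Cox5b, a zinc-binding subunit on the matrix side, had 11, 23 and 29 counts (94.3, 215 and 234 CPM) in Commd10-deficient libraries, against 422 and 367 CPM in control set 1 and 779 and 888 CPM in control set 2. All 3 Commd10-deficient libraries were lowest, the log2 fold change was -1.74 (SE 0.41, edgeR adjusted p = 0.0270), and control set 1 was itself below control set 2 (log2 change -1.08, edgeR adjusted p = 0.0149). Cox6a1, the widely expressed isoform of its subunit, overlapped, at 1123, 1065 and 1083 CPM in Commd10-deficient libraries, 879 and 1031 CPM in control set 1 and 1699 and 1595 CPM in control set 2. Its estimate against set 2 was -0.59 (edgeR adjusted p = 0.0484), but 0.45 with the length and GC offset. Cox8a had 326, 159 and 259 CPM in Commd10-deficient libraries, against 639.9 and 197 CPM in control set 1, which differ 3.24-fold, and 541 and 569 CPM in control set 2. The tissue isoforms of muscle, heart or testis (Cox6a2, Cox6b2 and Cox7a1) did not pass the filter and had 0 or 1 counts in each Commd10-deficient library.

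Other complex IV members split between the control sets. Cox7c, named after its values were seen, was called higher against set 1 (log2 fold change 1.21, edgeR adjusted p = 0.00387), with 394, 579 and 639 CPM in Commd10-deficient libraries, 267 and 197 CPM in control set 1 and 621 and 556 CPM in control set 2. It has 3 near-identical pseudogene transcripts. Cox5a, also named after its values were seen, was called lower against set 1 (-0.82, edgeR adjusted p = 0.0348) and had an estimate of -0.10 against set 2. Its control replicate 2 stood at 1108 CPM, against 643, 537 and 524 CPM in the other controls and 626, 429.7 and 428 CPM in the Commd10-deficient libraries. The call for Cox5a against set 1 held under 4 of the 7 alternatives that kept every library. It was lost with DESeq2, limma-voom and the length and GC offset.

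In complex V, edgeR called 0 of 14 tested members against all controls, where 6.04% of all tested genes were called. At an unadjusted p under 0.05 there were 3 members. DESeq2 called 3 lower (Atp5b, Atp5e and Atp5j2) and limma-voom called 0. Atp5b, the catalytic beta subunit, had 506, 327 and 477 CPM in Commd10-deficient libraries, against 684 and 712 CPM in control set 1 and 835 and 1014 CPM in control set 2. The groups did not overlap, and the log2 fold change was -0.89 (SE 0.28, edgeR adjusted p = 0.0669). Atp5e, the epsilon subunit of the central stalk, had 94.3, 103 and 331 CPM in Commd10-deficient libraries, against 364 and 305 CPM in control set 1 and 714 and 794 CPM in control set 2, with a log2 fold change of -1.59 (SE 0.48, edgeR adjusted p = 0.0590). Commd10-deficient replicate 3 lay within control set 1 for this gene, as for Uqcrq.

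Atp5j2, a membrane subunit with 1 near-identical pseudogene transcript, had 257, 196 and 477 CPM in Commd10-deficient libraries, against 496 and 517 CPM in control set 1 and 812 and 1190.3 CPM in control set 2, with a log2 fold change of -1.26 (edgeR adjusted p = 0.0654). Atp5k, a membrane subunit that takes part in the pairing of the enzyme into dimers, also has 1 such pseudogene and had opposite signs against the 2 sets. It had 394, 299 and 590.2 CPM in Commd10-deficient libraries, of which 2 lay above the 231 and 304 CPM of control set 1 and all below the 1400.0 and 1174 CPM of control set 2. Its log2 difference between set 1 and set 2, -2.27 (edgeR adjusted p = 1.13e-04), had the smallest p of any member in that comparison. Against set 2, 5 complex V members were called lower and Atp5f1, subunit b of the peripheral stalk and named after its values were seen, was called higher (log2 fold change 0.87, edgeR adjusted p = 0.0496), a call that held under 6 of 14 alternatives. Of all tested genes, 10.3% were called lower and 8.7% higher against set 2, and 25.4% of the 682 shortest were called lower. Against set 1, 1 member was called, higher: Atp5g1, one of the genes for subunit c of the rotor ring (0.88, edgeR adjusted p = 0.0358). The non-subunit Atp5s did not pass the filter, with 0, 1 and 0 counts in Commd10-deficient libraries, 23 and 30 in control set 1 and 0 and 4 in control set 2, and Atp5sl was not called (log2 fold change 0.63). Below the filter were also Atp5l, a membrane subunit, and Atp5g2, another gene for subunit c. Atp5l had 3, 5 and 1 counts (25.7, 46.7 and 8.08 CPM) in Commd10-deficient libraries, 33 and 38 counts (7.23 and 10.9 CPM) in control set 1 and 5 and 10 counts (23.3 and 40.9 CPM) in control set 2. Atp5g2 had 1, 0 and 1 counts (8.57, 0 and 8.08 CPM) in Commd10-deficient libraries, 9 and 20 counts (1.97 and 5.73 CPM) in control set 1 and 2 and 0 counts (9.33 and 0 CPM) in control set 2.

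**Figure D3:**
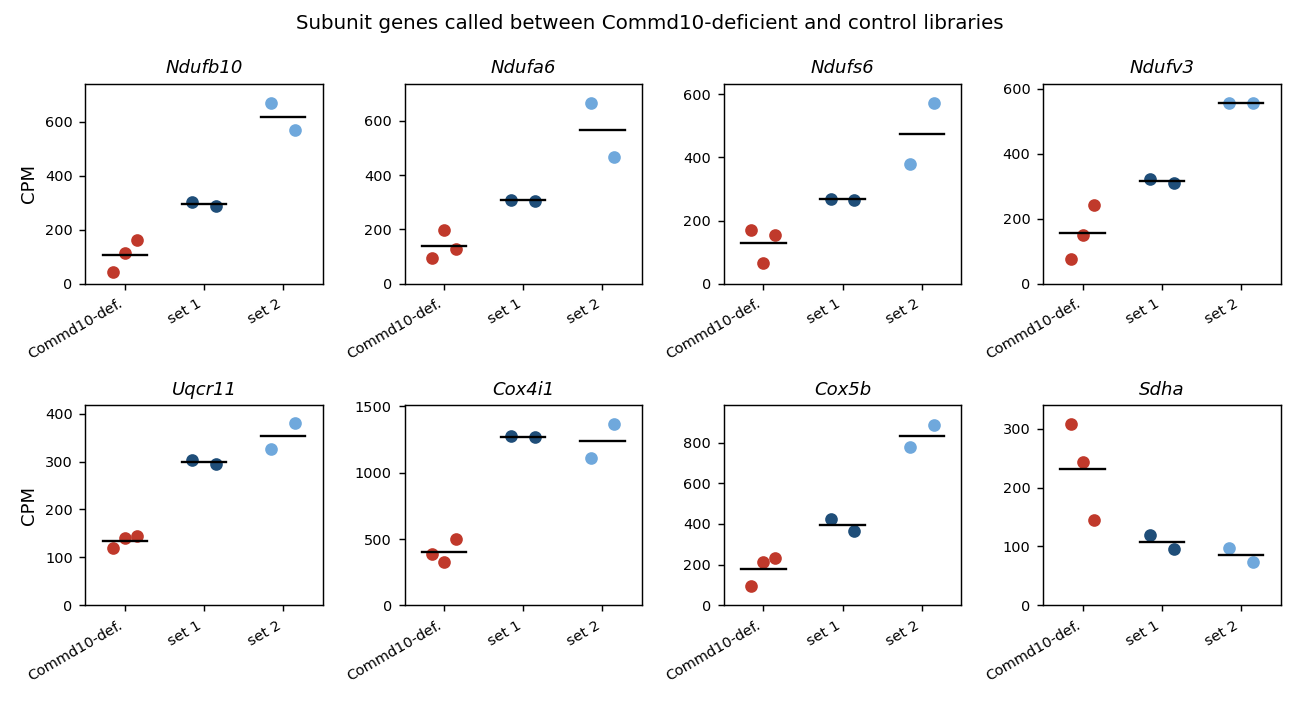
Level in CPM (y axes from 0, a scale for each gene) of the 8 members that edgeR called between Commd10-deficient and control libraries. Points are libraries and bars are group means. In each of the 8 panels the 3 Commd10-deficient libraries do not overlap the controls, and control set 2 lies above control set 1 for Ndufb10, Ndufa6, Ndufs6, Ndufv3 and Cox5b, while both sets are close for Cox4i1, Uqcr11 and Sdha.

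The called members have these positions in the genome (GRCm38, GENCODE annotation), of which Sdha and Ndufs6 lie near each other: Sdha at chr13:74322254-74350280, minus strand, Ndufs6 at chr13:73319838-73328542, minus strand, Ndufb10 at chr17:24722060-24724478, minus strand, Ndufv3 at chr17:31520115-31531331, plus strand, Ndufa6 at chr15:82350140-82354322, minus strand, Uqcr11 at chr10:80402997-80406830, minus strand, Cox4i1 at chr8:120668222-120674207, plus strand, and Cox5b at chr1:36691449-36693681, plus strand. Nuclear genes of this pathway are known to share promoter motifs of nuclear respiratory factor 1 (NRF1), ETS-family factors such as GABP, and YY1. RefSeq promoter sequences (250 bases before to 50 after a gene's start, GRCm38.p6) matched 65 members with 71 promoters. On either strand, the NRF1 motif (GCGC, then A and any base N, then GCGC) was found in 22.5% of member promoters and 4.60% of all 32851 promoters, the ETS motif CCGGAAG in 22.5% and 8.86%, and the YY1 motif (AAGAT followed by GGCGG) in 9.86% and 0.852%. Among the promoters of called members, 3 of 7 held the NRF1 motif, against 12 of 58 promoters of tested members that were not called. For the ETS motif these counts were 1 of 7 and 13 of 58, and for the YY1 motif 1 of 7 and 6 of 58. The differences were not tested. The 120 bases before the start of both complex II genes that were higher in every Commd10-deficient library, and of Uqcr11 and Ndufs6, which fell, are shown 5′ to 3′ on the gene's strand, with motif matches in capitals.
Sdha (chr13:74350241-74350360, minus strand, 3 NRF1 matches): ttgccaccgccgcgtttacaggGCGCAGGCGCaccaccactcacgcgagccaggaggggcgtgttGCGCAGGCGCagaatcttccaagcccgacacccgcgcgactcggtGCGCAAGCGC
Sdhd (chr9:50603850-50603969, minus strand, 1 NRF1 and 1 ETS match): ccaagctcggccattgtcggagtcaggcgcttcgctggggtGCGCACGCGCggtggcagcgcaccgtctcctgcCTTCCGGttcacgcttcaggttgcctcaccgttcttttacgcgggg
Uqcr11 (chr10:80406822-80406941, minus strand, 1 ETS match): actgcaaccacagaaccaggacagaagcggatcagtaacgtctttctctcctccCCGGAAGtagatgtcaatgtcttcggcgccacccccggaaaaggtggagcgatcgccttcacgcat
Ndufs6 (chr13:73328483-73328602, minus strand, 1 NRF1 match): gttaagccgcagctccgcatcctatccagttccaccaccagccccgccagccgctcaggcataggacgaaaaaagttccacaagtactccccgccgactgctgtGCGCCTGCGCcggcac
The starts are those of RefSeq, so the windows of Sdha, Ndufs6 and Uqcr11 lie partly within the GENCODE gene bounds given above. The matches are letters in a window and were not tested as binding sites. The NRF1 motif stood in the promoters of Sdha, which rose, and of Ndufs6 and Ndufa6, which fell.

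The members have short transcripts, and the shortest of all tested genes had a median fold change below 0 in each comparison. The median transcript length was 861 bases for the members and 2751 bases for all listed genes. In the 682 shortest tested genes (64 to 1251 bases, 50 of them members), the median log2 fold change against all controls was -0.39, and it was -0.46 for the members among them. Against control set 1 these medians were -0.18 for all of these genes and -0.13 for their members, and against control set 2 they were -0.47 and -0.67. Between control set 1 and control set 2 they were -0.26 and -0.70. Of these 682 genes, 6.89% were called lower against all controls, beside 6 of the 50 members. The share called lower was 13.5% against set 1 (9 of the 50 members) and 25.4% against set 2 (19 members). Between the control sets it was 19.6% (21 members). Of these 50 members, 3 were called higher against set 1 and 0 in the other comparisons. In the 681 longest tested genes (3747 to 23495 bases) the median was 0.16 against all controls. With an offset for length and GC content, the median of tested members against all controls was -0.19, and 0 of 70 were called where 8 were called without it. With the same offset, 15 members were called against set 1 (10 higher and 5 lower, where 6 higher and 10 lower were called without it), 18 against set 2 (2 higher and 16 lower) and 20 between the control sets (4 higher and 16 lower). The share of all tested genes called with the offset is not given here. These counts therefore do not show whether the change was particular to the members.

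**Figure D4:**
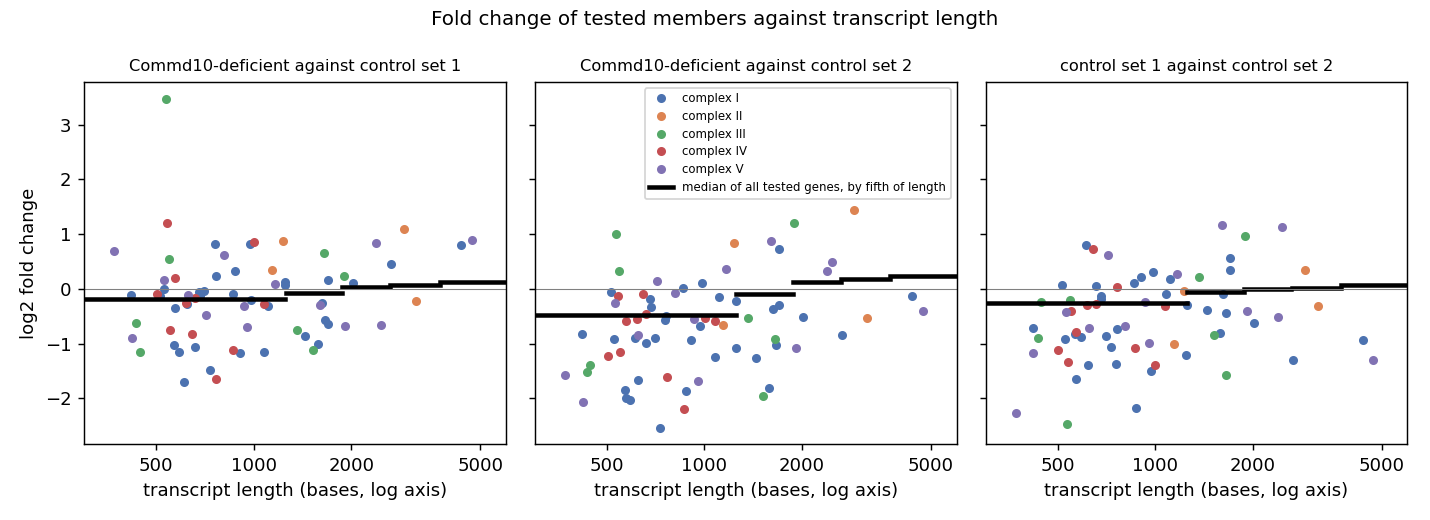
Log2 fold change of each tested member (points, coloured by complex) against transcript length in bases on a log axis, for Commd10-deficient over control set 1, Commd10-deficient over control set 2, and control set 1 over control set 2. Black steps are the median of all tested genes in 5 classes of length, which lies at -0.18, -0.47 and -0.26 in the shortest class, where 50 of the 70 members sit.

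The Commd10-deficient libraries also differed among themselves. Replicate 3 was the highest of the 3 for 35 of 70 tested members, replicate 1 for 22 and replicate 2 for 13. Replicate 3 was over 1 on the log2 scale above the others for 10 members, which include Atp5e and Uqcrq, and its median difference was 0.20 for the members, beside 0.03 for all tested genes.

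Lists of neighbouring genes in the pathway gave few calls against all controls, where 6.04% of all tested genes were called. The calls were 5.88% of tested assembly factors and 7.69% of tested TCA cycle and pyruvate dehydrogenase genes, near that share. Of 40 listed assembly factors, which build the complexes but are not part of them, 17 were tested and 1 fell: Cox14, a factor of complex IV assembly. Cox14 had 60.0, 112 and 113 CPM in Commd10-deficient libraries, against 212 and 253 CPM in control set 1 and 219 and 217 CPM in control set 2 (log2 fold change -1.25, SE 0.33, edgeR adjusted p = 0.0420). It was not called by limma-voom or with the length and GC offset. Cox20, another complex IV assembly factor, named after its values were seen, had 18, 18 and 13 counts (154, 168 and 105 CPM) in Commd10-deficient libraries, against 18.6 and 41.6 CPM in control set 1 and 60.7 and 81.8 CPM in control set 2. The genotypes did not overlap, and the log2 fold change of 1.65 (SE 0.49, edgeR adjusted p = 0.0586) missed the threshold against all controls, where DESeq2 and limma-voom called Cox20 higher. Against control set 1 it rose, with a log2 fold change of 2.24 (edgeR adjusted p = 0.00195), and against control set 2 the estimate was 0.98 (edgeR adjusted p = 0.156). Of 20 listed genes of the TCA cycle and pyruvate dehydrogenase, 13 were tested and 1 rose: Dld, the dihydrolipoamide dehydrogenase shared by the pyruvate and oxoglutarate dehydrogenase complexes. Dld had 13, 14 and 19 counts (111, 131 and 154 CPM) in Commd10-deficient libraries, against 43.6 and 55.3 CPM in control set 1 and 23.3 and 28.6 CPM in control set 2 (log2 fold change 1.68, SE 0.40, edgeR adjusted p = 0.0270). Neither Cox14 nor Dld overlapped between genotypes. Against control set 1, where 19.3% of all tested genes were called, the calls were 1 higher and 1 lower of the 17 assembly factors, 2 higher and 1 lower of the 13 TCA cycle genes, 2 higher and 1 lower of 6 biogenesis regulators, and 1 higher of 8 electron carrier and coenzyme Q genes. Against control set 2, where 19.1% were called, the calls were 3 lower of the assembly factors, 1 higher of the TCA cycle genes, 1 higher of the biogenesis regulators, 1 lower of the electron carrier and coenzyme Q genes, and 2 higher and 2 lower of 19 import and nucleotide exchange genes.

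Against all controls, where 6.04% of all tested genes were called, 0 edgeR calls came from the remaining lists. These were 6 tested regulators of mitochondrial biogenesis (2 at an unadjusted p under 0.05, 1 called higher by DESeq2, 0 by limma-voom), 19 tested genes of import and adenine nucleotide exchange (1, 1 higher and 0 by the same measures), 8 tested electron carriers and coenzyme Q genes, 8 tested genes of cristae, fusion and fission, and 5 subunits or inhibitors that the symbol rule leaves out. The last 3 lists had 0 genes at an unadjusted p under 0.05 and 0 calls by DESeq2 or limma-voom. Among genes outside the rule, Atpif1, the inhibitor of ATP hydrolysis by complex V, repeated the split between the control sets, with 429, 551 and 679 CPM in Commd10-deficient libraries, 464 and 606 CPM in control set 1 and 1143 and 1018 CPM in control set 2; it is named after its values were seen. Of the 5 genes outside the rule, 1 was called higher against set 1 and 1 lower against set 2. Import genes gave 0 edgeR calls against set 1 (2 at an unadjusted p under 0.05, 1 called by DESeq2 and 0 by limma-voom). Genes of cristae, fusion and fission gave 0 edgeR calls against set 1 (1 at an unadjusted p under 0.05) and 0 against set 2 (0 at an unadjusted p under 0.05), with 0 calls by DESeq2 or limma-voom in either.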

How the data were processed

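The authors deposited 1 table of UMI-corrected raw counts per gene and sample, per the file headers, and in the same table a normalized signal per gene and sample, which from the values is the raw count divided by 1 number per column, with a largest gap of 0.00579 over all genes and libraries, and was used only for that check. The tools named are cutadapt, HTSeq and DESeq2, with mm10, per the submitters' processing notes. Versions, aligner, and the handling of strand and of multi-mapping reads were not given in the sources used here. Columns of per-sample values left unmatched numbered 0.

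Raw counts of all 7 libraries were tested over 3412 genes that passed edgeR's default filter by edgeR 4.0.16 under R 4.3.3, with its quasi-likelihood F test (TMM, robust shrinkage, Benjamini-Hochberg adjustment over all tested genes, calls at an adjusted p under 0.05), in a 2-group fit and in a model with 3 levels (Commd10-deficient, control set 1, control set 2). CPM used the table total and TMM factor. The script was tested on simulated data. Alternatives were DESeq2 1.42.0, limma-voom (limma 3.58.1), other size factors, no filter, other shrinkage, thinning to the shallowest library, an offset for length and GC, each control set alone, and each library left out. Transcript lengths and pseudogenes came from GENCODE (a pseudogene transcript matching at least 95% over at least 150 of the last 300 bases), and promoters from RefSeq. Of the members, 11 have such a copy and 23 overlap an exon on the opposite strand.

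Members, lists and tests were chosen with earlier results of these data known. Named members are all called ones and, per complex, the 3 with the smallest p and the 2 with the highest mean CPM. Ndufa4, Atp5sl, members below the filter and called genes of the other lists are named as well. All other members named, including Atp5g1, Ndufa7, Ndufb6 and Ndufb11, were named after their values were seen.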

Additional observations from a re-analysis of the deposited data

How the results depend on the processing

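Against all controls, the count of called members (8) was 17 with no filter on low counts, 15 with DESeq2, 3 with limma-voom, 0 with the length and GC offset, 15 against control set 1 alone and 30 against control set 2 alone, and 0 to 16 with each library left out. It stayed within 1.5 times with DESeq2 size factors (8), shrinkage that is not robust (7) and thinning (10). With each library left out, the count was 6 to 15 against set 1 (16 with all), 14 to 30 against set 2 (26 with all) and 7 to 29 between the control sets (27 with all). The estimate for Cox6a1 against set 2 turned to 0.45 with the offset, and that for Ndufa7 (-0.92) to 0.02 (edgeR adjusted p = 0.968). Against set 2, the calls for Uqcrc2, Uqcrc1, Atp5f1 and Sdhb held under 7, 5, 6 and 6 of 14 alternatives, and all 4 were lost with limma-voom, with the offset and with either library of set 2 left out. The cause of these changes was not tested. The share of all tested genes called under each alternative is not given here, so the changes may not be particular to the members. Low counts in the Commd10-deficient libraries limit what single members can show. No paired analysis was possible because the numbers were given in record order and the labels give no shared numbers.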
